A study of Mus musculus with 9 samples.

Results

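The subunits of the oxidative phosphorylation machinery were examined in RNA from mouse brain around a photothrombotic infarct, with the genes of the nucleus set beside those of the mitochondrial genome. Members were the rows of the deposited table whose gene symbol names a subunit of complexes I to V, 99 of 55401 rows, of which 86 are nuclear and 13 are mitochondrial mRNAs. The 86 nuclear rows carry 85 symbols, since Atp5o is listed under a pair of identifiers. Of the 99 members, 95 had a mean of at least 0.5 FPKM (fragment counts scaled to gene length and library size) over all libraries and were tested, 82 nuclear and 13 mitochondrial. The untested rows were Cox7b2, Cox8b, Cox8c and the second Atp5o identifier. The row Cox6c2 is annotated as a processed pseudogene, and Ndufa4 was counted with complex IV.

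The study sequenced 9 libraries of wild-type (WT) mouse brain tissue, 3 per group, all taken at day 28. The sham group had sham surgery and ultrapure water, the PT group had photothrombosis (clotting of cortical vessels by light and a photosensitive dye) and ultrapure water, and the Pushen group had photothrombosis followed by Pushen, an approved medicine, by oral gavage from the day after surgery. The labels give 391, 392 and 393 mg/kg for the 3 Pushen libraries, which were treated as 1 group. Strain, age and sex are not given in the labels. Nor do they say that each library was a different animal, and the p-values refer to the spread seen among these 9 libraries alone, which may be technical.

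Oxidative phosphorylation passes electrons from NADH and succinate through complexes I to IV of the inner mitochondrial membrane to oxygen, and complex V (ATP synthase) uses the proton gradient that results to make ATP. Its subunits come from a pair of genomes: the mitochondrial genome is transcribed as long precursors and supplies a few core subunits of complexes I, III, IV and V, while the nucleus supplies the rest and the whole of complex II. Neurons depend heavily on this pathway, and several subunits of complexes IV and V exist as tissue isoforms encoded by separate genes.

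The libraries held 57437342 to 75100133 counts. Mean counts per library were 71.9 to 54312 for the tested nuclear members, with a median of 4265, and 27901 to 1528010 for the mitochondrial mRNAs. The extraction text of the labels speaks of retinas although the tissue is given as brain, and 0 of 8 photoreceptor markers reached the expression minimum, while 10 of 10 neuron markers did. In PT against sham, edgeR called 7 of 10 neuron markers lower, against 11.8% of all genes. It called higher 7 of 8 astrocyte markers, 6 of 8 each of microglia and macrophages, oligodendrocytes and endothelium, and 8 of 8 of fibroblasts and meninges, which had the highest median (log2 3.57). Of all genes, 19.1% were called higher. In bulk tissue, fewer cells of a type and less RNA per cell cannot be told apart. Choroid plexus markers stood highest in PT library 1 and Pushen library 2 (mean 3.94 and 4.07 above the sham mean in log2 units), against 1.27 to 2.096 in the other 4 PT and Pushen libraries. Striatal neuron markers also stood highest in PT library 1 (3.54 above the sham mean), against 0.0016 to 1.30 in the other PT and Pushen libraries.

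In PT against sham, 11 of 82 nuclear subunits were called changed by edgeR's quasi-likelihood test at an adjusted p under 0.05, 2 higher and 9 lower. That is 13.4% of the tested nuclear members, against 30.9% of all 16740 genes tested (19.1% higher and 11.8% lower). The median log2 fold change of the nuclear members was -0.11, against -0.0029 for all tested genes, and 63 of 82 lay below 0, against 50.3% of all genes. For 25 of 82 the FPKM of the 3 PT libraries all lay below those of the 3 sham libraries, and for 2 of 82 all above, against 18.6% and 29.3% of all tested genes. When libraries were scaled by their total counts alone, 2 nuclear members were called higher and 2 lower (29.8% of all genes were called), and the medians of the nuclear members and of all genes became -0.05 and 0.06. The calls that remained there were Cox6b2, Atp5e, Ndufs1 and Uqcrc2. Of the mitochondrial mRNAs, 0 of 13 were called by edgeR or by limma and 1 of 13 by DESeq2 (mt-Nd3, with 37.4% of all genes called by that tool), although 12 of 13 fold changes lay below 0 with a median of -0.19. The number of mitochondrial mRNAs with an unadjusted edgeR p under 0.05 was 1, against 42.9% of all genes. The FPKM of PT and sham overlapped for all 13.

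**Figure D1:**
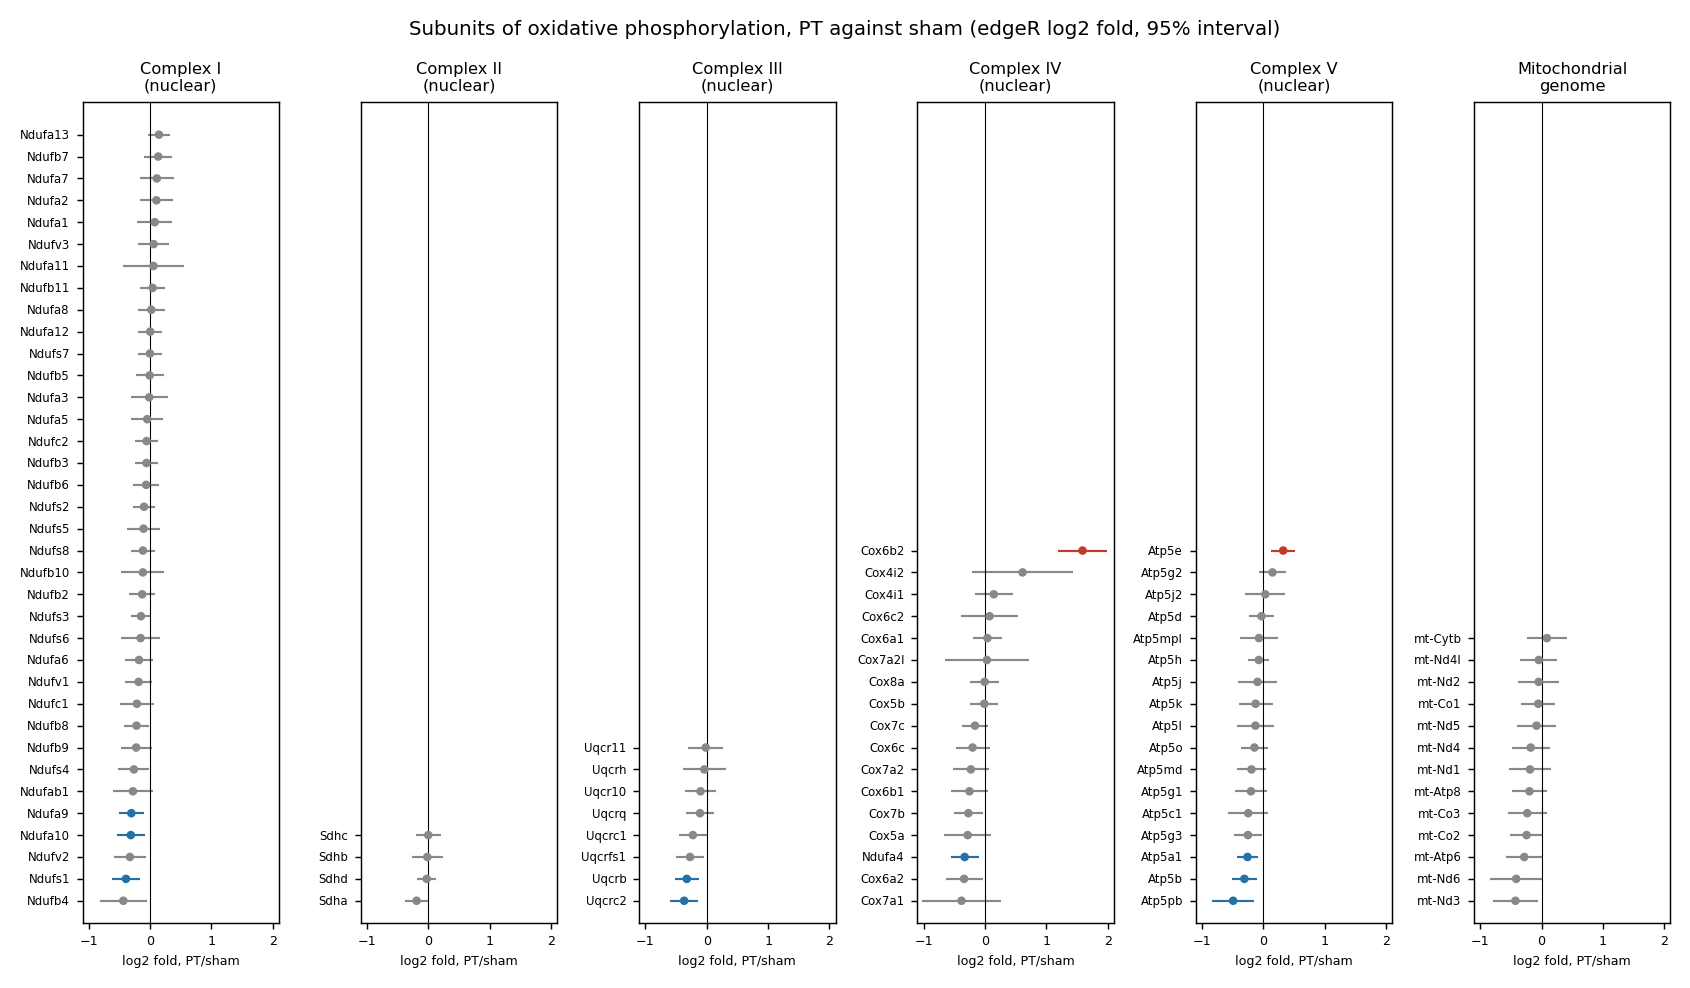
Log2 fold change of PT against sham (x axis) for the 95 tested subunits, ordered by size within each complex and within the mitochondrial genome. Points are edgeR estimates and lines their 95% intervals. Red marks the 2 subunits called higher, blue the 9 called lower and grey those not called.

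Complex I takes electrons from NADH, and its nuclear subunits divide into core subunits, which carry the redox centres, and supernumerary subunits around them. Of 36 nuclear subunits tested in PT against sham, 3 were called lower (8.33%, against 11.8% of all genes) and 0 higher, with a median of -0.10. Of the 7 nuclear core subunits 1 was called, with a median of -0.15, and of the 29 supernumerary ones 2 were called, with a median of -0.06. Ndufs1, the large iron-sulphur core subunit, stood at 14.78, 14.57 and 13.96 FPKM in the sham libraries, at 9.78, 12.1 and 12.5 in PT and at 13.3, 12.4 and 13.3 in Pushen. All 3 PT values lay below all sham values, with the lowest in PT library 1. The fold change of PT against sham was -0.39 on the log2 scale (SE 0.10, adjusted p = 0.0182). Ndufa9 and Ndufa10, both supernumerary, fell by 19.1% (adjusted p = 0.0345) and 19.5% (adjusted p = 0.0408), again without overlap of the groups. Leaving out sham library 1 or 2 took the call from Ndufs1 (adjusted p = 0.0626 and 0.0522). Ndufa9 lost its call when any one sham library, or library 1 or 3 of PT, was left out (adjusted p 0.0521 to 0.103). Ndufa10 lost its call in the same cases and also when the first Pushen library was left out (0.0552 to 0.132). Ndufb4, a supernumerary subunit of the membrane arm chosen after its values were seen, had the lowest estimate in the complex, -0.43, and did not pass the test.

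Complex II, succinate dehydrogenase, is shared with the citric acid cycle and is wholly nuclear. None of its 4 genes was called by edgeR in any comparison. Sdha, the flavoprotein that holds the active site, had 84.5, 90.2 and 84.1 FPKM in sham, 72.8, 81.1 and 81.8 in PT and 79.2, 81.8 and 87.7 in Pushen. Its PT values lay below its sham values, with a log2 fold change of -0.19 (SE 0.08, unadjusted p = 0.0431, adjusted p = 0.104), and DESeq2 called it (adjusted p = 0.0487). The other three had estimates from -0.03 to -0.00096, and their 95% intervals for PT against sham ran from -0.27 to 0.23. Sdhd, a membrane anchor, varied least, from 38.3 to 41.7 FPKM over the 9 libraries.

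Complex III passes electrons from ubiquinol to cytochrome c. Of its 8 tested nuclear subunits 2 were called lower in PT (25%, against 11.8% of all genes). All 8 fold changes lay below 0 with a median of -0.17. Uqcrc2, one of the core proteins that hold the dimer together, had 55.0, 56.4 and 52.3 FPKM in sham, 38.0, 46.6 and 47.4 in PT and 46.9, 43.2 and 49.0 in Pushen. Neither PT nor Pushen values overlapped those of sham. Its fold change in PT was -0.37 (SE 0.10, adjusted p = 0.0248), and it lost the call without sham library 1 or 2 (adjusted p = 0.0754 and 0.0742). Uqcrb, a small subunit that binds ubiquinone, had 55.4, 57.7 and 54.5 FPKM in sham against 45.1, 52.1 and 42.3 in PT, a fold change of -0.32 (SE 0.08, adjusted p = 0.0204). It lost the call without sham library 1, sham library 2 or PT library 1 (adjusted p 0.0543 to 0.0679). Cyc1, the cytochrome c1 subunit whose symbol lies outside the selection, had a fold change of -0.04 and was not called.

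Complex IV, cytochrome c oxidase, held the largest change among the 95 tested members. Cox6b2, the isoform of subunit 6B known from testis, rose from 1.26, 1.01 and 1.2 FPKM in sham to 4.23, 3.67 and 3.16 in PT, and stood at 3.26, 3.26 and 2.86 in Pushen. Every PT and Pushen value was more than 2 times the highest sham value. Group means were 1.16 ± 0.13 (SD, n = 3) in sham, 3.69 ± 0.54 in PT and 3.13 ± 0.23 in Pushen. The log2 fold change was 1.59 for PT against sham (SE 0.18, 95% interval 1.19 to 1.99, adjusted p = 0.000579) and 1.34 for Pushen against sham (SE 0.18, adjusted p = 0.00149). Both calls held in all 20 alternative fits, with adjusted p of at most 0.0103. Its partner Cox6b1, the isoform of most tissues, had 137.5, 104.7 and 126.1 FPKM in sham, 98.8, 100.4 and 122.5 in PT and 122.7, 125.3 and 142.3 in Pushen, and was not called (log2 -0.25, adjusted p = 0.184). Cox6b2 therefore made up 0.935% ± 0.025 (SD, n = 3) of the summed FPKM of the pair in sham, 3.38% ± 0.81 in PT and 2.36% ± 0.34 in Pushen, so that Cox6b1 was the main isoform in every library.

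**Figure D2:**
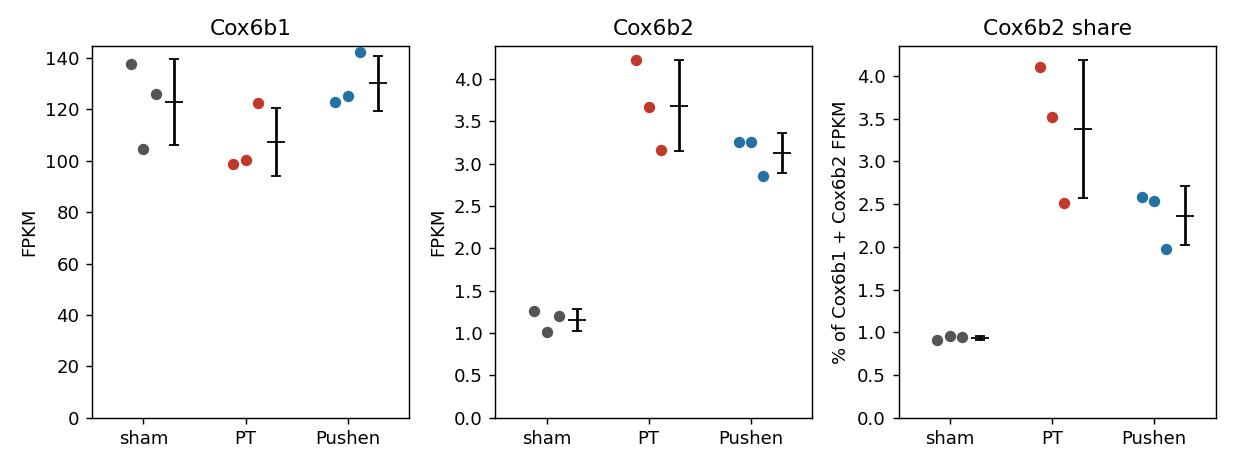
FPKM of Cox6b1 and Cox6b2 and the share of Cox6b2 in their sum (y axes, each from 0) in the sham, PT and Pushen libraries. Points are libraries, and bars beside them are the mean and SD of 3. Cox6b2 is above 2.8 FPKM in all PT and Pushen libraries and below 1.3 in all sham libraries, while Cox6b1 overlaps between sham and PT.

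Since near-identical copies can trade reads, the coding sequences of the pair are shown (GRCm38, GENCODE M21), with capitals at the positions where they differ in the alignment.
Cox6b1, chr7:30617109-30624605, minus strand: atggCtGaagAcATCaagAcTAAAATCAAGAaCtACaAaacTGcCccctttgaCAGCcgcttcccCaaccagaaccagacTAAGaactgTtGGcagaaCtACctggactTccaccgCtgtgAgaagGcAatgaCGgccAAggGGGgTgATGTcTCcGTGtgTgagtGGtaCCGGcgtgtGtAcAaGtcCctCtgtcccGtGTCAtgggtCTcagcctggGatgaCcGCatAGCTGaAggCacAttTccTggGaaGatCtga
Cox6b2, chr7:4751922-4752835, minus strand: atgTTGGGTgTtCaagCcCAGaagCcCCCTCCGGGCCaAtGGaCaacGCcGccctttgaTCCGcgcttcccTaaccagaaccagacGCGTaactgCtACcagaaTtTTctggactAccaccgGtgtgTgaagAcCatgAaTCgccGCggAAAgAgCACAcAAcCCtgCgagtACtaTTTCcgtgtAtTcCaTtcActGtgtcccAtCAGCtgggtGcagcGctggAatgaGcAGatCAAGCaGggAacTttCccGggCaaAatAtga
The sequences are 261 and 267 bases long and 60.2% identical over 269 aligned columns, and the longest stretch that the transcripts share without a difference is 14 bases. The Cox6b2 gene lies at chr7:4751792-4753094 on the minus strand in the deposited table, and no other row of the table overlaps it. The 100 bases before the start site of each gene (RefSeq, GRCm38.p6) are shown next, because the members of the pair differed in their response. Capitals mark the letters of the GABP string, here on the opposite strand, the only one of the strings given further on that lies in these stretches.
Cox6b1, chr7:30626115-30626214, minus strand: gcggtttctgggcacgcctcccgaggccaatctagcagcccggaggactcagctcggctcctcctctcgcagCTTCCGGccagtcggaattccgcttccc
Cox6b2, chr7:4753095-4753194, minus strand: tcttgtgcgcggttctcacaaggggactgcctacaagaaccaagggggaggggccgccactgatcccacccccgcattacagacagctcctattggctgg

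The other subunit of complex IV that was called was Ndufa4, a late-added subunit first assigned to complex I. It had 56.8, 54.2 and 62.1 FPKM in sham, 45.5, 48.3 and 49.4 in PT and 68.8, 55.8 and 53.8 in Pushen. PT lay below both other groups without overlap, and its fold change against sham was -0.33 (SE 0.10, adjusted p = 0.0365). Leaving out library 1 or 3 of sham, or 1 or 2 of PT, ended the call (adjusted p 0.0843 to 0.111). Among the isoform pairs, Cox6a2, the heart and muscle isoform of subunit 6A, had 8.59, 7.56 and 8.45 FPKM in sham, 6.31, 7.07 and 6.84 in PT and 6.85, 5.79 and 6.70 in Pushen. All 6 PT and Pushen values lay below the 3 sham values, but edgeR did not call it (log2 -0.34, adjusted p = 0.0836 for PT and -0.41, adjusted p = 0.0676 for Pushen against sham), whereas DESeq2 called both (adjusted p = 0.041 and 0.0199). Cox6a2 RNA is known from parvalbumin interneurons in brain. Of 7 markers listed for those neurons, 5 were called lower in PT (71.4%, against 11.8% of all genes), while Lhx6 and Kcnc2 were not called. The mean log2 level of the 7 relative to sham was -0.80 to -0.39 in PT, -0.59 to -0.29 in Pushen and -0.16 to 0.10 in sham. The part of those neurons in the values of Cox6a2 was not tested. Of 8 skeletal muscle markers, 1 reached the expression minimum. It was Acta1, with 4.54 ± 0.21 FPKM in sham, 3.39 ± 0.54 in PT and 3.77 ± 0.63 in Pushen (SD, n = 3). Its PT and Pushen values all lay below its sham values, without an edgeR call (log2 -0.48, adjusted p = 0.0643 for PT against sham). The part of muscle in the values of Cox6a2 was not tested either.

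The remaining isoform sets of complex IV gave no call. Cox4i2, the hypoxia-linked isoform of subunit 4, had 0.59 to 1.43 FPKM in sham and 1.31 to 1.78 in PT (log2 0.61, SE 0.36, adjusted p = 0.230), against 121.5 to 193.5 FPKM for Cox4i1 over all libraries. Cox7a1, another heart and muscle isoform, lay between 1.15 and 2.45 FPKM, and Cox7a2, the isoform of most tissues, between 51.1 and 70.4. Cox7b fell short of the threshold (log2 -0.27, adjusted p = 0.0833), and Cox7b2 was at most 0.35 FPKM. Cox8a stood at 357.9 to 464.1 FPKM with an estimate of -0.0053 for PT against sham, while Cox8b was at most 1.47 FPKM and Cox8c had 0 in every library.

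Complex V gave 3 subunits called lower and 1 higher among 17 tested in PT against sham, with a median of -0.13. That is 23.5% called, against 30.9% of all genes (19.1% higher and 11.8% lower). Both major subunits of the catalytic head were among those called lower. Atp5b, the beta subunit with the catalytic sites, had 188.3, 184.6 and 182.9 FPKM in sham, 142.9, 161.6 and 162.7 in PT and 160.6, 144.8 and 164.6 in Pushen. Both photothrombosis groups lay wholly below sham. The log2 fold change was -0.31 (SE 0.09) against sham in each case, with an adjusted p of 0.028 for PT and 0.0435 for Pushen. Atp5a1, the alpha subunit, fell by 16.3% in PT (adjusted p = 0.0366). Atp5pb, the b subunit of the peripheral stalk, had 41.5, 33.6 and 37.9 FPKM in sham and 23.7, 34.5 and 25.6 in PT, with 1 PT library inside the sham range (log2 -0.49, SE 0.15, adjusted p = 0.0356). Atp5e, the epsilon subunit of the central stalk, went the other way, from 24.2, 22.0 and 24.9 FPKM in sham to 33.4, 30.5 and 28.8 in PT, with 27.7, 29.0 and 30.1 in Pushen. Its fold change was 0.32 (SE 0.09, adjusted p = 0.0215) in PT and 0.22 (adjusted p = 0.117) in Pushen against sham. The calls of Atp5e in PT were lost without sham library 2 or PT library 1 (adjusted p = 0.0827 and 0.0557), those of Atp5b without any one sham library or PT library 1 or 2 (0.0554 to 0.0866), and those of Atp5pb when library 1 or 3 of sham or of PT, or the first Pushen library, was left out (0.0516 to 0.119). Atp5a1 lost its call without any one of 7 libraries, that is, all except the third of PT and of Pushen (0.0533 to 0.103). The call of Atp5b in Pushen was lost without any one sham library, the second PT library, or library 1 or 2 of Pushen (0.0672 to 0.161).

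The 3 genes for subunit c, the ring that turns in the membrane, encode the same mature protein and differ in their targeting sequence. Atp5g3 was the most abundant at 55.9 to 72.8 FPKM, then Atp5g2 at 28.6 to 38.2 and Atp5g1 at 11.7 to 16.1, with no overlap between these ranges. In the order named, their estimates in PT against sham were -0.25 (adjusted p = 0.0854), 0.15 (adjusted p = 0.254) and -0.20 (adjusted p = 0.212), and edgeR called none. DESeq2 called Atp5g3 (adjusted p = 0.0481).

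**Figure D3:**
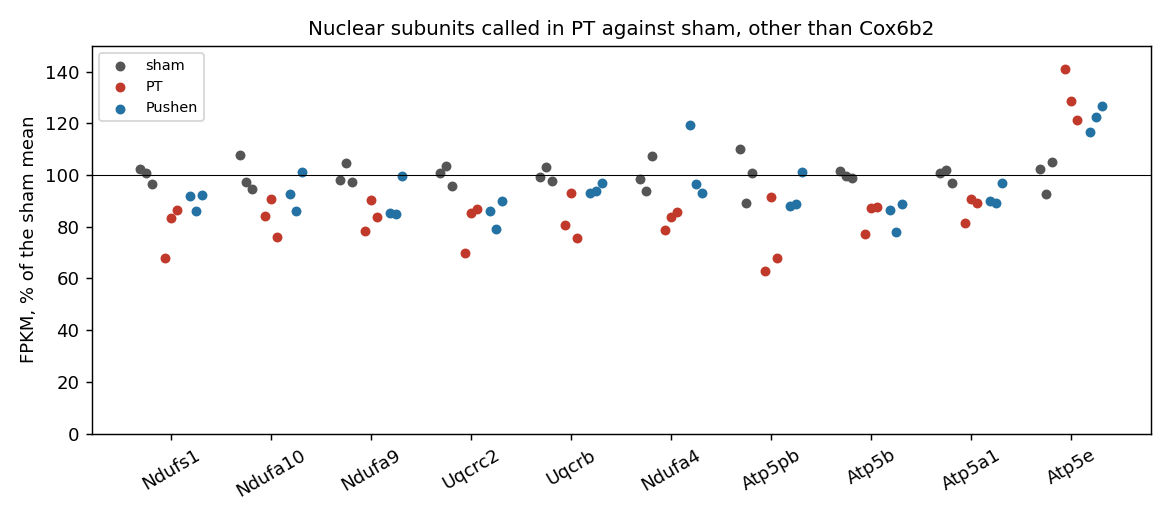
FPKM of the 10 nuclear subunits other than Cox6b2 that were called in PT against sham, each as a percentage of its sham mean (y axis), by library. Points are libraries of the sham, PT and Pushen groups, ordered by complex. Apart from Atp5pb, every PT value lies outside the sham range of its gene, and for Ndufa4 the Pushen values lie above the PT values.

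The deposited counts carry no statement of strand, and 6 of the called members overlap a gene on the opposite strand. The overlap with Wdr77 covers 731 bases of Atp5pb, and Ino80dos covers 13650 bases of Ndufs1. The other genes so placed are Gm42890 at Atp5pb and Gm24557, a miRNA with 5 counts, within Ndufs1. The remaining pairs are Uqcrb with Gm10767, Uqcrc2 with Pdzd9, Atp5a1 with Haus1 and Ndufa9 with 1700018A23Rik. Total counts of these neighbours over all libraries were 5 (Gm24557) to 12856 (Wdr77), against 31601 (Uqcrb) to 399479 (Atp5a1) for these members.

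The 13 mitochondrial mRNAs took 6.91 to 8.20% of all counts in sham, 6.52 to 8.71% in PT and 6.71 to 7.32% in Pushen, so the groups overlapped. The highest mitochondrial level within PT was in library 1 and the lowest in library 2. Mean log2 levels of the 13 relative to the sham mean were 0.19, -0.18 and -0.01 in sham, 0.06, -0.35 and -0.25 in PT and -0.26, -0.11 and -0.18 in Pushen. The same mean over the 82 nuclear members was 0.08, -0.05 and -0.03 in sham, -0.09, -0.06 and -0.11 in PT and -0.15, -0.15 and 0.08 in Pushen. The mitochondrial minus nuclear difference shifted by -0.09 in PT against sham, with a pooled SD between libraries of 0.18, which is within that spread. It was 0.01 without PT library 2 and -0.21 without PT library 1. In Pushen the shift was -0.10 against sham (SD 0.14) and -0.01 against PT (SD 0.19). Markers of neurons moved more: their mean level relative to sham was -0.09 to 0.10 in sham, -0.78 to -0.38 in PT and -0.50 to -0.20 in Pushen, and its part in the subunit values was not tested.

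**Figure D4:**
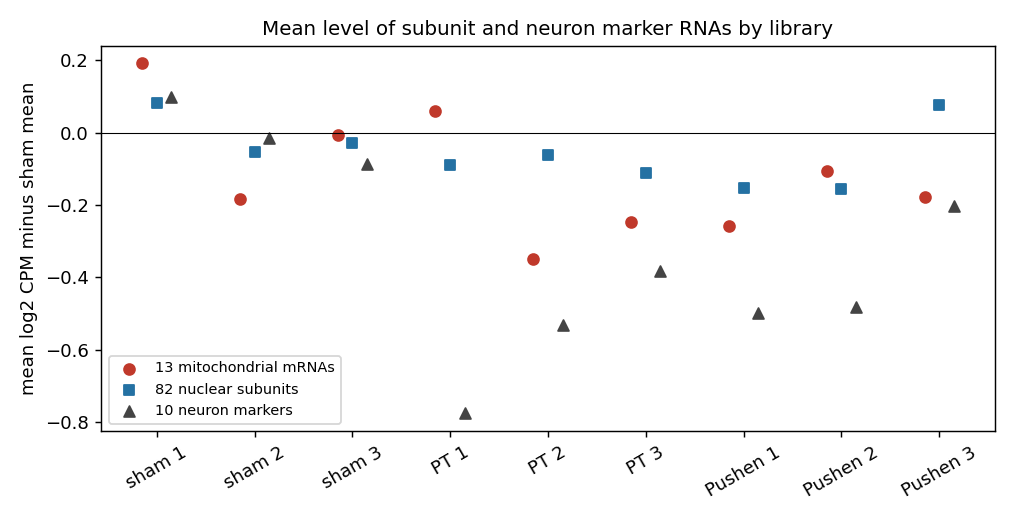
Mean log2 CPM (library-scaled counts) minus the sham mean (y axis) for the 13 mitochondrial mRNAs, the 82 tested nuclear subunits and 10 neuron markers, in each of the 9 libraries (x axis). The neuron markers lie between -0.78 and -0.20 in the PT and Pushen libraries, whereas the nuclear subunits lie between -0.15 and 0.08 over all 9.

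Single mitochondrial mRNAs ranged from mt-Nd3, at 840 to 1461 FPKM, to mt-Co1, at 11358 to 15069 FPKM. The light-strand gene mt-Nd6 and the heavy-strand gene mt-Nd3, both subunits of complex I, had the lowest estimates in PT against sham. Without a statement of strand, precursor RNA of the opposite strand across mt-Nd6 cannot be told apart from its own mRNA. This limit holds for its share of the counts too. For mt-Nd3 the values were 1461, 982 and 1096 FPKM in sham, 1067, 840 and 841 in PT and 935, 1071 and 1040 in Pushen. Its PT and sham values overlapped, and the fold change was -0.43 (SE 0.16, unadjusted p = 0.0297, adjusted p = 0.0796). edgeR called it without sham library 2 (adjusted p = 0.0497). For mt-Nd6 they were 3821, 2472 and 2780 in sham, 2757, 2077 and 2266 in PT and 2445, 3118 and 2947 in Pushen (log2 -0.41, SE 0.19, adjusted p = 0.125). The other complex I genes mt-Nd1, mt-Nd2, mt-Nd4, mt-Nd4l and mt-Nd5 had estimates from -0.19 to -0.04. Of the oxidase genes, mt-Co1 had -0.05, mt-Co2 -0.24 and mt-Co3 -0.23, and mt-Co2 was called only without PT library 1 (adjusted p = 0.0418). The ATP synthase genes mt-Atp6 and mt-Atp8 had -0.28 and -0.20. Cytochrome b, mt-Cytb, had 0.09, the one estimate above 0.

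The make-up of the mitochondrial counts, which does not depend on their total, was compared next. mt-Cytb took 12.4, 13.7 and 13.7% of the 13 genes' counts in sham, 15.9, 14.7 and 14.4% in PT and 13.9, 13.8 and 14.4% in Pushen. Every PT value was above every sham value. mt-Nd6 took 2.74, 2.12 and 2.11% in sham, 1.88, 1.88 and 1.91% in PT and 2.16, 2.52 and 2.50% in Pushen, and mt-Nd3 took 0.703, 0.564 and 0.557% in sham, 0.487, 0.510 and 0.475% in PT and 0.553, 0.580 and 0.592% in Pushen. For both genes PT lay below the other groups without overlap. The shares of mt-Nd1, mt-Co2, mt-Atp6, mt-Co3 and mt-Nd4 in PT also lay below those in sham, with differences of -0.638 to -0.363 percentage points, and that of mt-Nd4l above (0.0655 points). In Pushen against PT, mt-Co1 had the largest difference in share, 29.7% ± 0.4 against 31.6% ± 1.0 (SD, n = 3), without overlap. Each of these differences had an exact two-sided permutation p of 0.1, the smallest that 3 libraries against 3 allow, and 39 such tests were made (13 genes in 3 comparisons). The shares of a library sum to its total and so are not independent of each other.

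**Figure D5:**
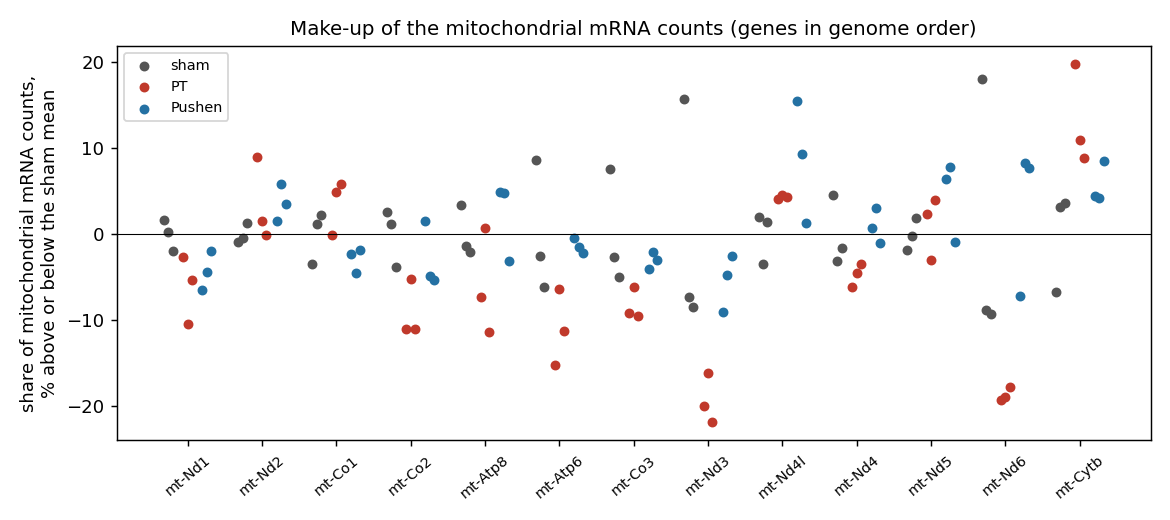
Share of each gene in the counts of the 13 mitochondrial mRNAs, as a percentage above or below its sham mean (y axis), with genes in genome order (x axis). Points are libraries of the sham, PT and Pushen groups. mt-Nd3 and mt-Nd6 are lowest and mt-Cytb is highest in the 3 PT libraries.

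Neighbouring mitochondrial genes share bases, which matters for the counts of the short ones. The overlaps are shown with 10 bases on either side (GRCm38, plus strand), and capitals mark the bases that belong to both genes.
mt-Atp8 and mt-Atp6, chrMT:7917-7979: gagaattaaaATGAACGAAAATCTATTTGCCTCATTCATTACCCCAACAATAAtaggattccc
mt-Nd4l and mt-Nd4, chrMT:10157-10183: acctactacaATGCTAAaaattattct
The first overlap is 43 bases long and the second 7. mt-Nd5 and mt-Nd6 lie on opposite strands and overlap by 14 bases. How the counter assigned reads in these stretches is not given in the sources used here.

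In Pushen against PT, edgeR called 0 of 82 nuclear and 0 of 13 mitochondrial members, and 0 (0%) of all 16740 genes. DESeq2 and limma also called 0 members, with 48 genes (0.287%) called by DESeq2 in all. At an unadjusted p under 0.05 there was 1 nuclear and 0 mitochondrial member, against 6.49% of all genes. That member was Ndufa4, whose Pushen values given above all exceeded the PT values (log2 0.31, SE 0.10, 95% interval 0.08 to 0.54, adjusted p = 0.707). The next smallest p-values belonged to Uqcrb (log2 0.18), Atp5pb (0.31), Cox6b1 (0.27) and Ndufs7, a core iron-sulphur subunit of complex I (-0.17), all with an adjusted p of 0.707. The median fold change was 0.0015 for the nuclear and -0.01 for the mitochondrial members. The fold change lay below 0 for 41 of 82 and 8 of 13, against 51.7% of all genes. The FPKM of the groups did not overlap for 5 nuclear members that were higher and 2 that were lower in Pushen, against 7.25% and 5.19% of all genes, and for 0 of the mitochondrial ones. The 95% intervals lay within -0.5 and 0.5 for 70 of 82 nuclear and 10 of 13 mitochondrial members. Over all members they reached from -0.90 to 0.73 for the nuclear and from -0.53 to 0.68 for the mitochondrial ones. For Cox6b2 the difference was -0.24 with an interval of -0.63 to 0.14.

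Pushen against sham shares its sham libraries with PT against sham. Of 82 nuclear members, 1 was called higher (Cox6b2) and 1 lower (Atp5b), 2.44% against 16.2% of all genes (13.5% higher and 2.73% lower), with a median of -0.10. DESeq2 called 5 nuclear members, against 23.3% of all genes. An unadjusted p under 0.05 was found for 14 nuclear members (31.9% of all genes), and 64 of 82 fold changes lay below 0 (51.8% of all genes). The FPKM of the groups did not overlap for 12 of 82 nuclear members, 4 higher and 8 lower, against 40.3% of all genes (27.2% higher and 13.1% lower). The same held for 1 of 13 mitochondrial mRNAs, which was lower in Pushen. Of the mitochondrial mRNAs 0 of 13 were called by edgeR, DESeq2 or limma and 0 had an unadjusted p under 0.05, while all 13 estimates lay below 0 with a median of -0.19. Among the 9 subunits called lower in PT, the estimates for Pushen against sham ran from -0.31 (Atp5b) to -0.02 (Ndufa4). The others were -0.22 for Ndufs1, -0.22 for Ndufa9, -0.17 for Ndufa10, -0.30 for Uqcrc2, -0.14 for Uqcrb, -0.19 for Atp5a1 and -0.18 for Atp5pb, none of them called. The difference between the PT and Pushen groups was not called for any of them. These 9 were selected for low PT values, so estimates nearer 0 in Pushen cannot be read as a recovery.

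Genes that build, feed or regulate the complexes gave the following counts in PT against sham, beside 30.9% of all genes (19.1% higher and 11.8% lower). Of 14 genes for electron carriers and coenzyme Q synthesis, Coq8b rose (log2 0.57, adjusted p = 0.0337) and Coq3 fell (-0.43, adjusted p = 0.0176), and Cycs, cytochrome c itself, had -0.39 (adjusted p = 0.057). Of 16 complex I assembly factors 1 fell, Tmem126b (-0.36, adjusted p = 0.0164), while the list median was -0.23, below that of the subunits. Ndufaf5 (-0.32) and Ndufaf7 (-0.24) had the next smallest p-values and were not called. Of 34 assembly factors of complexes II to V 4 fell and 0 rose (11.8%, the same as the share of all genes called lower). Among the 4 were Ttc19 (-0.59, adjusted p = 0.00586), which acts on complex III, and Sdhaf3 (-0.48), for complex II. Cox10 (-0.33), which makes a precursor of the haem of complex IV, was also among them.

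Genes that express the mitochondrial genome gave 1 call for DNA maintenance and transcription, 5 for RNA processing and 5 for the ribosome. Of 16 genes for mitochondrial DNA maintenance and transcription 1 fell, Mterf2 (-0.48, adjusted p = 0.0328). Tfam, which packages the genome and starts its transcription, had 6.55 ± 0.46 FPKM in sham and 5.75 ± 0.38 in PT (SD, n = 3), a difference of -0.24 that was not called (adjusted p = 0.0863). The helicase Twnk had 0.17. Of 19 genes for mitochondrial RNA processing and stability 5 fell and 0 rose (26.3%, against 11.8% of all genes called lower): Fastkd2 (-0.55, adjusted p = 0.00642), Lrpprc, which stabilises mitochondrial mRNAs (-0.36, adjusted p = 0.0226), Mtpap, the poly(A) polymerase (-0.31, adjusted p = 0.0284), Ptcd3 (-0.38) and Grsf1 (-0.23). Of 78 mitochondrial ribosomal proteins 2 rose and 3 fell (6.41%), with Mrps17 (-0.51), Mrpl48 (-0.33) and Mrpl52 (0.45) the smallest p-values.

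Of 10 regulators of mitochondrial biogenesis 2 fell and 0 rose (20%, against 11.8% of all genes called lower). Estimates lay above 0 for 5 of the 10 and below 0 for 5, with a median of 0.02. Esrrg, a nuclear receptor of the ERR family, had 5.79 ± 0.52 FPKM in sham and 3.04 ± 0.42 in PT (SD, n = 3), a log2 fold change of -0.99 (SE 0.13, adjusted p = 0.000896). Ppargc1a, the coactivator PGC-1alpha, had 7.34 ± 0.36 and 5.63 ± 0.64, a change of -0.44 (SE 0.10, adjusted p = 0.0122). Gabpb1 (-0.60, adjusted p = 0.102) and Nrf1 (0.28, adjusted p = 0.213) were not called. The mean log2 level of the list relative to sham was -0.19 to 0.06 in PT, -0.04 to 0.06 in Pushen and -0.14 to 0.10 in sham. Neuron markers were lower in PT too, as given above, and their part in the values of Esrrg and Ppargc1a was not tested.

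The citric acid cycle and pyruvate dehydrogenase, which supply the NADH and succinate, gave 2 higher and 6 lower of 18 (44.4%), with a median of -0.21. Suclg2, the GTP-forming succinyl-CoA synthetase subunit, rose from 2.56 ± 0.35 to 5.34 ± 0.61 FPKM (SD, n = 3, log2 1.00, adjusted p = 0.00148), whereas Sucla2, its ATP-forming counterpart, fell by 0.42 on the log2 scale (adjusted p = 0.0196). Idh2, the NADP-dependent isocitrate dehydrogenase, rose by 0.72 on the log2 scale (adjusted p = 0.00362), whereas Idh3a, a subunit of the NAD-dependent enzyme, fell by 28.5% (adjusted p = 0.0137). The other subunits of these enzymes were not called: Idh3b had -0.21, Idh3g -0.09 and Suclg1, which both succinyl-CoA synthetases share, -0.21. Dld, Fh1, Dlat and Pdhx fell by 19.4 to 23.2%. Of the 8 astrocyte markers, 7 were called higher (against 19.1% of all genes), with a median log2 fold change of 0.94. Other marker medians were 1.67 for microglia and macrophages, 0.80 for oligodendrocytes and 3.57 for fibroblasts and meninges. Neuron markers had a median of -0.48. The part of these cell types in the values was not tested.

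Promoters of the nuclear members were searched in windows of 250 bases before to 50 bases after the start site (RefSeq, GRCm38.p6), on both strands. RefSeq windows were found for 69 of 85 symbols, 74 windows in all. The letters CATGCGC, of the nuclear respiratory factor NRF1, were in 17.6% of member windows and in 3.91% of all 32851 windows. CCGGAAG (GABP) was in 23.0% against 8.86%, AAGGTCA (ERR) in 10.8% against 4.72%, AAGATGG (YY1) in 14.9% against 6.34% and GGGCGG (SP1) in 40.5% against 35.7%. No string contains another. Of the 9 members called lower, 5 had a window, in which the letters for NRF1, GABP and ERR were in 0 of 5. Those for YY1 were in the windows of Atp5pb and Ndufa9, and those for SP1 in the windows of Atp5b, Atp5pb and Ndufa10. Of the strings searched, Cox6b2 had that for SP1 alone, and Atp5e had those for SP1, GABP and ERR. A match is a description of letters and not evidence of binding.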

How the data were processed

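The members and all gene lists were chosen with earlier results of these data known. Raw read counts per gene were deposited by the authors in 1 table for all libraries, made from Illumina TruSeq RNA libraries per the labels' protocols. The same deposited table gives FPKM, computed by the authors. The submitters' processing notes list Bowtie 0.12.2 and mm8. For the counting step, software and strand setting are not given in the sources. The coordinates in the table are those of GRCm38: 51957 of the 55141 identifiers also found in GENCODE M21 match it at both ends, among them 87 of 99 members.

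Samples were grouped by their titles, and all 18 value columns matched a library by name. The counts of 16740 genes were tested, those averaging 0.5 FPKM or more across the 9 libraries. One edgeR 4.0.16 model covered all 3 groups (R 4.3.3, TMM scaling, quasi-likelihood test), with Benjamini-Hochberg adjustment over all tested genes in each comparison. An adjusted p under 0.05 was called. SEs come from the log2 fold change and its F statistic, and 95% intervals use the t distribution. The fit was tested on counts simulated from its own estimates of spread, which cannot show how well the model suits these data. Levels are FPKM, with the SD of 3 libraries. DESeq2 1.42.0, limma 3.58.1 (on log2 of FPKM plus 0.1), other scalings, filters and sample sets were tried as alternatives. Coding sequences were aligned with Biopython 1.88, and shares of mitochondrial counts were compared by exact permutation in scipy 1.17.1.

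Named genes are all mitochondrial mRNAs, every called nuclear member, the isoform sets, the Sdh genes, the 5 members of smallest p in Pushen against PT, up to 3 genes of smallest p in each other list, and Ppargc1a, Tfam, Nrf1, Cyc1 and Cycs. Genes outside this rule are marked or belong to a count given beside them. Replicate numbers come from the titles and do not pair the libraries.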

Additional observations from a re-analysis of the deposited data

How the results depend on the processing

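In PT against sham, 11 nuclear members were called in the main fit, beside 30.9% of all genes. DESeq2 called 18 (37.4% of all genes), scaling by total counts only 4 (29.8%) and limma on log2 FPKM 7 (29.5%). The count was 3 without PT library 1 and Pushen library 2, and 2 to 17 when 1 library was left out. It was 2 without sham library 1, 3 without sham library 2 or PT library 1, 5 without sham library 3 and 17 without Pushen library 3. For fits on fewer libraries the share of all genes called is not given here. Changes particular to the members therefore cannot be told apart from a change in the rate of calls over all genes. The 0 mitochondrial mRNAs called became 1 with DESeq2 and 0 to 1 when 1 library was left out (1 without sham library 2 or PT library 1). In Pushen against sham, 2 nuclear members were called in the main fit (16.2% of all genes) and 5 with DESeq2 (23.3%). The count was 1 with a minimum of 0.1 FPKM, 1 with no FPKM filter and 4 with only the 2 groups compared. It was 1 to 7 when 1 library was left out (7 without Pushen library 3, 4 without PT library 1, and 1 without any sham library, PT library 2, Pushen library 1 or Pushen library 2). In Pushen against PT, 0 members were called under every alternative. The cause of these changes was not tested. With the replicate number as a block, 5 nuclear members were called in PT against sham. Deviations of same-numbered libraries did not correlate (r from -0.228 to 0.0729 over 9 pairs), and 0 of 9 libraries correlated best with their own number. The mitochondrial minus nuclear shift moved by less than 1 SD under every alternative run, but its sign changed in places: it ranged from -0.21 to 0.01 for PT against sham and from -0.11 to 0.11 for Pushen against PT. Over the 123 results of named members, 2350 of 2454 alternative values kept their direction and side of the threshold or lay uncalled in both fits (155 of them with the opposite sign), 86 lost the call, 18 gained one and 0 called values changed sign.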

Other observations

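Cox7a2l, a factor of respiratory supercomplexes, belonged to the isoform sets, and its pattern was picked out after its values were seen. It differed between libraries of the same group. It had 58.5, 36.4 and 35.9 FPKM in sham, 40.5, 62.8 and 36.3 in PT and 35.1, 36.9 and 61.1 in Pushen. One library of each group, sham 1, PT 2 and Pushen 3, stood at 58.5 to 62.8 and the other 6 at 35.1 to 40.5, and the gene was called in no comparison. The ratio of its highest to its lowest library was 1.79, and 15 of the 82 tested nuclear members had a ratio over 1.5, among them Ndufa11 (1.99) and Cox7a1 (2.13).

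Of 23 mitochondrial ribosomal and transfer RNAs tested in PT against sham, 6 transfer RNAs fell and 0 rose (26.1%, against 30.9% of all genes called and 11.8% called lower). The median was -0.58, against -0.19 for the 13 mRNAs of the same genome, and the difference between these sets was not tested. Single estimates ran from -2.40 to 0.13. Relative to the sham mean, the mean log2 level of the set spread from -0.29 to 0.48 within sham (SD 0.42, n = 3) and lay at -0.69 to -0.51 in PT. mt-Tn had 248.1 ± 69.6 FPKM in sham and 133.4 ± 15.01 in PT (SD, n = 3, edgeR adjusted p = 0.0151), and mt-Ta 169.8 ± 47.0 and 95.4 ± 11.1 (adjusted p = 0.0221). In Pushen against PT, 19 of 23 estimates lay above 0 with a median of 0.30, and edgeR called 0 (4 at an unadjusted p under 0.05, against 6.49% of all genes). Transfer RNAs are shorter than the fragments of such libraries, and reads from precursors cannot be told apart from them, so these values are uncertain.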
